A study of Peromyscus maniculatus and Peromyscus polionotus and Peromyscus maniculatus x Peromyscus polionotus with 18 samples.

Results

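Microglia are the resident macrophages of the brain. 10 genes that mark them in rodents (Aif1, Cx3cr1, P2ry12, Tmem119, Csf1r, C1qa, C1qb, C1qc, Trem2 and Tyrobp) were followed in whole brains of 2 deer mouse species and their F1 hybrids. The members were the rows of the deposited tables whose symbol is one of these names, whatever the case of the letters. 9 of the 10 genes had such a row: 8 of the 20731 named rows of the table of TPM (transcript abundances scaled for transcript length and to a common library total) and 8 of the 11928 rows of the table of allele counts, with 7 genes in both. C1qb had a row only among the counts and Tyrobp only among the TPM. C1qc was found in the TPM table through its RefSeq gene ID alone, so it is described beside the members and left out of their counts.

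The study asked how brain expression differs between a species that digs long burrows, *Peromyscus polionotus*, and one that digs short ones, *Peromyscus maniculatus*. All animals were adult males of 50 to 80 days, none with a stated transgene or deletion, and all had gone through 2 earlier trials in sand-filled enclosures before being assigned at random to a cohort labelled burrowing or control. There were 18 libraries, 3 in each of 6 groups: both cohorts of *P. maniculatus*, of *P. polionotus* and of the F1 hybrid of *P. maniculatus* and *P. polionotus*. The parental species were deposited as TPM and the hybrids as counts assigned to either parental allele. Whether both species were aligned to the same reference is not stated, and any part of the reference in the species differences was not tested. The 2 tables were normalized separately and were never tested against each other. The labels do not say what the control trial lacked, and the protocols describe individual animals, so each library was taken as 1 animal.

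As background, microglia live on signals from other cells. Csf1r is the receptor for Csf1 and Il34, the growth factors on which microglia depend. Cx3cr1 binds fractalkine (Cx3cl1), which is made by neurons, and P2ry12 senses ADP released by damaged or active cells. Trem2 binds lipids and lipoproteins, and passes its signal on through the adaptor Tyrobp. C1qa, C1qb and C1qc encode the chains of C1q, which starts the classical complement pathway and tags synapses for removal during development. Tmem119 encodes a membrane protein used to tell microglia from other macrophages, and Aif1 (Iba1) encodes an actin-binding protein used to stain them.

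Each hybrid had between 11415175 and 53906964 counts given to an allele, so hybrid control replicate 3 carries the deepest values and control replicates 1 and 2 the shallowest. 3 parental libraries stood apart on the second principal component, which held 7.47% of the variance: *P. maniculatus* control replicate 3, *P. polionotus* burrowing replicate 3 and *P. polionotus* control replicate 2. The members summed to 210 to 284 TPM in *P. maniculatus* and 315 to 365 TPM in *P. polionotus*. In whole brain, fewer microglia and less RNA per microglial cell cannot be told apart. Markers of border macrophages (6 of 11 with a row) summed to 7.15 to 9.73 TPM in *P. maniculatus* and 10.9 to 12.9 TPM in *P. polionotus*; Lyve1 (means of 2.18 and 7.03 TPM) made this gap, while Mrc1 (1.10 and 0.67 TPM) and Siglec1 (0.732 and 0.239 TPM) went the other way. Monocyte and neutrophil markers (9 of 18) summed to 13.9 to 21.7 and 18.6 to 23.4 TPM, lymphocyte markers (14 of 14) to 5.52 to 7.54 and 13.5 to 15.4 TPM, and red blood cell markers (7 of 17) to 3.41 to 9.57 and 4.56 to 13.3 TPM, in the same order of species. In the lymphocyte list Cd8a (means of 2.23 and 9.66 TPM) made the gap, and Cd4, Cd79a, Lck, Il7r, Cd2 and Cd3e had means no higher in *P. polionotus*. Of these markers, 0 were listed at 0 in every library. Astrocyte markers summed to 5161 to 5936 and 4534 to 5257 TPM, and endothelial and pericyte markers to 255 to 318 and 164 to 254 TPM. Oligodendrocyte markers summed to 2731 to 3622 and 2630 to 3003 TPM and neuron markers to 3336 to 3684 and 3451 to 3966 TPM, both with overlap. Several of these sums differed between the species without overlap, and their part in the differences below was not tested.

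The members were not equally abundant. C1qa was the highest in every parental library and C1qc the next, with means of 89.5 and 56.2 TPM in *P. maniculatus* and 143 and 75.3 TPM in *P. polionotus*. In *P. maniculatus* the order then ran Aif1, P2ry12, Tmem119, Tyrobp, Csf1r, Cx3cr1 and Trem2. From C1qa down to Csf1r each of these genes stood above the next in 6 of 6 libraries, although from C1qc down the ranges of neighbours overlapped. Csf1r and Cx3cr1 changed places in 3 of 6 libraries, as did Cx3cr1 and Trem2. In *P. polionotus* the order after C1qc was Aif1, Tmem119, Trem2, Cx3cr1, P2ry12, Tyrobp and Csf1r. There, the neighbours whose ranges overlapped were Aif1 and Tmem119, Cx3cr1 and P2ry12, and Tyrobp and Csf1r. The receptor genes thus held different places in the 2 species: P2ry12 stood above Tmem119, Trem2 and Cx3cr1 in *P. maniculatus* and below all 3 by mean TPM in *P. polionotus*.

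**Figure D1:**
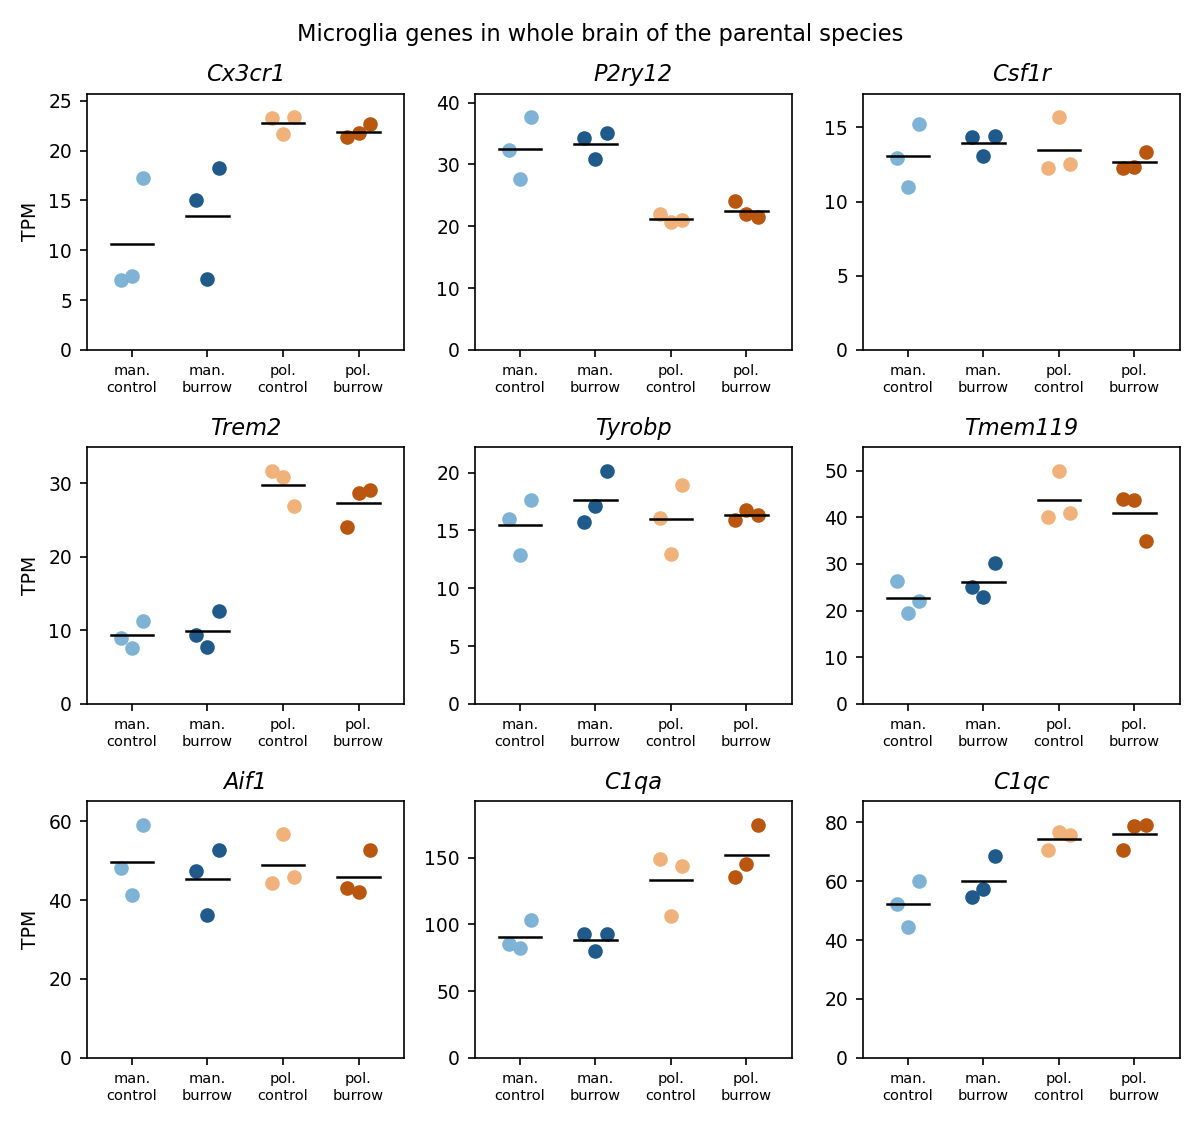
TPM of 8 microglia genes and C1qc in the 12 parental libraries (points), by species (man., *P. maniculatus*; pol., *P. polionotus*) and trial, with a bar at each group mean; every axis starts at 0. Trem2, Tmem119, C1qa and Cx3cr1 were higher and P2ry12 lower in all *P. polionotus* libraries, whereas Csf1r, Tyrobp and Aif1 overlapped. The share of all genes without overlap was not counted.

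Over both trials, 4 of the 8 members were higher and 1 was lower in *P. polionotus* (limma on log2(TPM + 1), Benjamini-Hochberg adjusted p under 0.05). Among all 14366 genes tested, 32.6% were higher and 19.8% lower, so calls in general were frequent in this comparison. The first principal component, with 68.3% of the variance, set the species apart. The share of all genes without overlap between the species was not counted, so a lack of overlap is given below as a description. The median difference of the members was 0.33 on the log2(TPM + 1) scale, and that of all genes 0.06. These 4 and 1 calls held when the libraries were rescaled to equal medians or quantile-normalized, where the calls over all genes went from 4688 higher and 2841 lower to 3786 and 3897 or 3826 and 3857.

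Trem2 had the largest species difference of the members. Its TPM were 9.01, 7.59 and 11.3 in *P. maniculatus* control animals and 9.35, 7.74 and 12.6 in burrowing animals. In *P. polionotus* they were 31.7, 30.8 and 26.9 in control and 24.1, 28.7 and 29.2 in burrowing animals. The lowest *P. polionotus* library was well above the highest *P. maniculatus* library. Means were 9.59 ± 1.98 and 28.6 ± 2.77 TPM (SD, n = 6), a ratio of 2.98. The difference was 1.50 (SE 0.12) on the log2(TPM + 1) scale, with a limma adjusted p of 2.2e-06.

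Tyrobp, the adaptor that Trem2 signals through, showed no such difference. Its TPM were 16.0, 12.9 and 17.6 in control and 15.7, 17.2 and 20.2 in burrowing *P. maniculatus*. The *P. polionotus* values were 16.1, 12.96 and 18.9 in control and 15.9, 16.8 and 16.3 in burrowing animals. The ranges of the species lay almost on top of each other. The difference was -0.03 (SE 0.10) on the log2(TPM + 1) scale, with a limma adjusted p of 0.807. Within a library, the ratio of Trem2 to Tyrobp TPM was 0.577 ± 0.0675 in *P. maniculatus* and 1.80 ± 0.346 in *P. polionotus* (SD, n = 6), without overlap.

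Cx3cr1, the fractalkine receptor, was uneven in 1 species and even in the other. Its TPM in *P. maniculatus* were 7.04, 7.44 and 17.3 in control and 15.1, 7.13 and 18.3 in burrowing animals. In *P. polionotus* they were 23.3, 21.7 and 23.4 in control and 21.3, 21.8 and 22.7 in burrowing animals. 3 *P. maniculatus* libraries thus lay close to 7 TPM and 3 at 15.1 or more, with both kinds in each trial, and all 6 were below *P. polionotus*. The coefficient of variation was 44.8% in *P. maniculatus*, a value reached by 0.883% of 10755 genes, and 4.003% in *P. polionotus*. The species difference was 0.95 (SE 0.23) on the log2(TPM + 1) scale, from means of 12.04 ± 5.4 and 22.4 ± 0.895 TPM (SD, n = 6), with a limma adjusted p of 0.00578.

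P2ry12, the ADP receptor, was the member that was lower in *P. polionotus*. Its TPM were 32.3, 27.6 and 37.7 in control and 34.2, 30.8 and 35.0 in burrowing *P. maniculatus*. The *P. polionotus* values were 22.0, 20.8 and 21.0 in control and 24.2, 22.0 and 21.5 in burrowing animals. The groups did not overlap. The mean in *P. maniculatus* was 1.51 times that in *P. polionotus*, and the difference of -0.56 (SE 0.07) on the log2(TPM + 1) scale had a limma adjusted p of 6.33e-05.

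Tmem119 went the other way from P2ry12, although both are used as markers of resident microglia. Its TPM were 26.3, 19.5 and 22.1 in control and 25.0, 23.0 and 30.1 in burrowing *P. maniculatus*. In *P. polionotus* they were 40.2, 50.0 and 40.9 in control and 44.0, 43.8 and 35.0 in burrowing animals. The lowest *P. polionotus* library was above the highest *P. maniculatus* one. The difference was 0.78 (SE 0.10) on the log2(TPM + 1) scale, with a limma adjusted p of 7.16e-05.

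Csf1r and Aif1 did not pass the test. Csf1r, the growth factor receptor, ranged from 11.0 to 15.2 TPM in *P. maniculatus* (median 13.7) and from 12.2 to 15.7 TPM in *P. polionotus* (median 12.4). Aif1 ranged from 36.2 to 59.1 TPM (median 47.8) and from 42.1 to 56.9 TPM (median 45.1). For both genes the ranges of the species overlapped. The differences were -0.04 (SE 0.08) for Csf1r and 0.01 (SE 0.12) for Aif1 on the log2(TPM + 1) scale, with limma adjusted p of 0.693 and 0.957.

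Both C1q chains with a row in the TPM table, C1qa and C1qc, were higher in *P. polionotus*. C1qa TPM were 85.3, 82.5 and 103 in control and 92.7, 80.0 and 93.1 in burrowing *P. maniculatus*. The *P. polionotus* values were 149, 107 and 144 in control and 136, 145 and 175 in burrowing animals. Only control replicate 2 of *P. polionotus* came near the *P. maniculatus* range. The difference was 0.66 (SE 0.10) on the log2(TPM + 1) scale, with a limma adjusted p of 0.00027. C1qc, matched by gene ID, ranged from 44.6 to 68.5 TPM in *P. maniculatus* and from 70.7 to 79.2 TPM in *P. polionotus*, again without overlap. Its difference was 0.42 (SE 0.08) on the same scale, with a limma adjusted p of 0.000966.

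The species difference was also tested in each cohort. Among control animals 4 members were higher and 1 lower in *P. polionotus*, where 26.8% of all genes were higher and 12.9% lower. Trem2 (1.59), Cx3cr1 (1.15), Tmem119 (0.92) and C1qa (0.55) were higher and P2ry12 (-0.58) lower on the log2(TPM + 1) scale. Among burrowing animals 3 members were higher and 1 lower, where 20% of all genes were higher and 14.1% lower. Trem2 (1.40), C1qa (0.77) and Tmem119 (0.63) were higher and P2ry12 (-0.55) lower, while Cx3cr1 had a difference of 0.75 with a limma adjusted p of 0.104. The call of Cx3cr1 in control animals depended on the 2 low libraries: its adjusted p rose from 0.0185 to 0.069 without *P. maniculatus* control replicate 1 and to 0.0697 without replicate 2, with differences of 0.94 and 0.97 against 1.15. Left without *P. maniculatus* control replicate 3, Cx3cr1 passed among burrowing animals with a limma adjusted p of 0.0386, at an unchanged difference of 0.75. That library is not a burrowing one and enters this comparison through the shared estimate of the spread. C1qc had an adjusted p of 0.00444 in control and 0.0343 in burrowing animals. The latter rose to between 0.094 and 0.121 when *P. maniculatus* burrowing replicate 1 or 2, or *P. polionotus* burrowing replicate 2 or 3, was left out, and to 0.0581 without the 3 libraries that stood apart, with differences of 0.28 to 0.32 against 0.34. The 2 cohort comparisons use different animals, and the difference between them is the interaction given next.

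The trial itself moved no member past the threshold. In *P. maniculatus*, burrowing minus control differences of the 8 members lay between -0.12 (Aif1) and 0.34 (Cx3cr1) on the log2(TPM + 1) scale, and 0 were called, where 0.00696% of all genes, a single gene, were called. In *P. polionotus* they lay between -0.12 (Trem2) and 0.20 (C1qa), and 0 members and 0% of all genes were called. The species by trial interaction of the members lay between -0.40 (Cx3cr1) and 0.22 (C1qa), again with 0 members and 0% of all genes called. In these 3 limma comparisons 0 members had an unadjusted p under 0.05. Standard errors of the members were 0.10 to 0.33 for the trial differences, so changes of the size seen for Cx3cr1 were within the spread between animals. In the hybrids, counts summed over both alleles gave trial differences between -0.50 (Trem2) and 0.19 (P2ry12) in log2, with 0 members and 0% of all genes called (edgeR quasi-likelihood test). DESeq2 called 0 members and 2 genes there. Cx3cr1 alone of the 8 had an unadjusted p under 0.05: its summed level was 45.2, 44.6 and 55.2 CPM (counts scaled to the animal's allele-assigned total) in control and 31.1, 33.9 and 46.1 in burrowing hybrids, a log2 difference of -0.40 (SE 0.17) with an adjusted p of 0.965. The burrowing range reached into the control range through replicate 3.

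In an F1 hybrid both alleles sit in the same cells, so the share of counts on an allele compares the alleles within an animal. Over all genes the *P. polionotus* share was 52.6% to 53.1%. How reads were given to an allele is not stated, and its part in the shares was not tested. 3 of the 8 members in the count table had a higher *P. polionotus* allele and 0 a lower one (edgeR quasi-likelihood test with the animal as a block, adjusted p under 0.05). Among all 11928 genes, 34.2% had a higher and 21.5% a lower *P. polionotus* allele. With each allele column scaled on its own, the calls over all genes turned from 4074 higher and 2567 lower to 2786 and 4215, the median of all genes went from 0.11 to -0.07 in log2, and the members had 3 higher and 1 lower. The 3 members, C1qa, C1qb and Trem2, kept their call in all 11 alternative analyses, single animals left out included.

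The *P. polionotus* allele held 63.5%, 63.6% and 69.6% of C1qa counts in burrowing replicates 1, 2 and 3 and 68.5%, 66.9% and 70.1% in control replicates 1, 2 and 3. For C1qb the shares were 62.5%, 62.7% and 70.6% in burrowing and 61.9%, 70.2% and 71.8% in control replicates. All 6 animals lay above 50% for both genes, by more than counting error: the lowest lower bound of a 95% Wilson interval was 61.2% for C1qa and 58.1% for C1qb. The log2 differences were 1.03 (SE 0.07) for C1qa and 1.005 (SE 0.12) for C1qb, with edgeR adjusted p of 6.5e-05 and 0.000547.

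Trem2 had the fewest counts of the members on average, with 75 to 377 per animal. The *P. polionotus* allele held 69.0%, 82.7% and 70.7% of them in burrowing and 75.0%, 69.6% and 67.1% in control replicates. Every animal was again above 50%, and the lowest lower bound of a 95% Wilson interval was 58.8%. The log2 difference was 1.37 (SE 0.16), with an edgeR adjusted p of 0.000652.

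The other members were near balance or uneven. P2ry12 shares were 52.7%, 48.9% and 49.7% in burrowing and 44.1%, 52.0% and 47.0% in control replicates, a log2 difference of -0.05 (SE 0.08) with an edgeR adjusted p of 0.589; with each allele column scaled on its own it was -0.23 with an adjusted p of 0.0436. Tmem119 shares were 50.7%, 50.0% and 41.3% in burrowing and 53.2%, 49.0% and 57.8% in control replicates, a log2 difference of 0.03 (SE 0.13) that became -0.15 under that scaling and did not pass under either. Aif1 shares ran from 50.7% to 60.9% (median 51.6%) and its log2 difference of 0.18 (SE 0.09) had an edgeR adjusted p of 0.22. Csf1r shares were 50.8%, 52.1% and 52.7% in burrowing and 63.6%, 51.8% and 52.0% in control replicates. A single animal, control replicate 1, thus stood above the rest for Csf1r. The Csf1r log2 difference of 0.22 (SE 0.11) had an edgeR adjusted p of 0.12; without that animal it was 0.11 with an adjusted p of 0.0379.

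**Figure D2:**
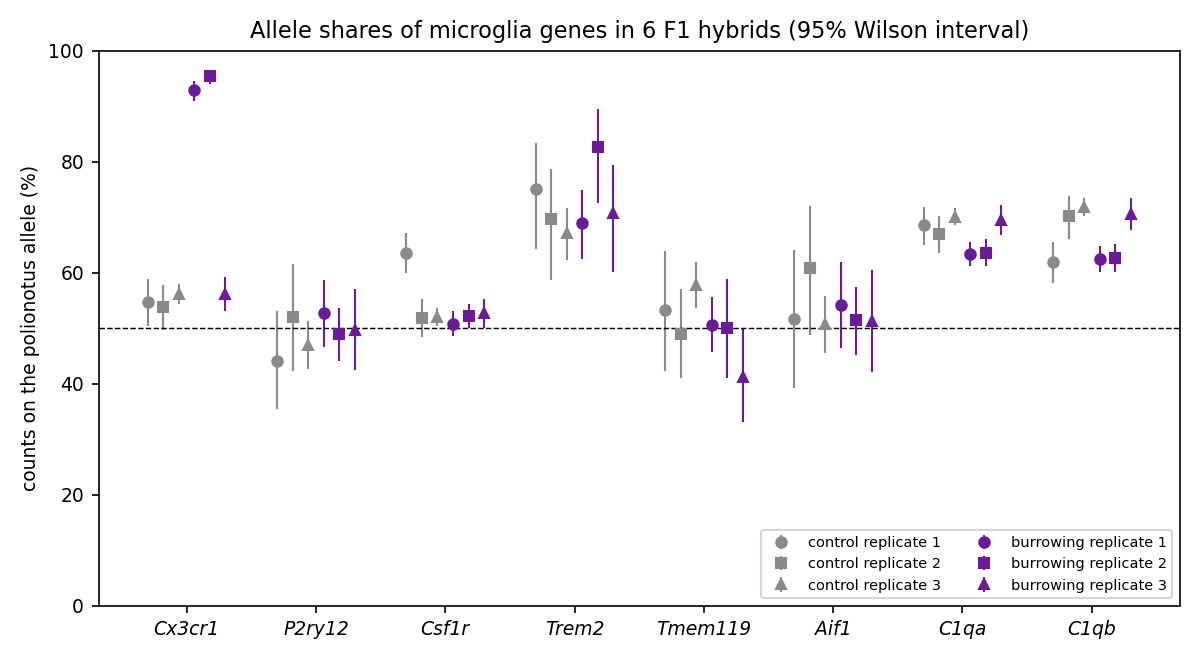
Percent of allele-assigned counts on the *P. polionotus* allele (y axis) for 8 microglia genes in the 6 hybrids; bars are 95% Wilson intervals, which cover counting error only, and the dashed line marks equal alleles. C1qa, C1qb and Trem2 lay between 61.9% and 82.7% in all animals, and Cx3cr1 was at 92.9% and 95.4% in burrowing replicates 1 and 2 and between 53.7% and 56.2% in the other 4.

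Cx3cr1 split the hybrids. Its *P. polionotus* allele held 92.9% of 817 counts in burrowing replicate 1 and 95.4% of 982 in burrowing replicate 2 (95% Wilson intervals 90.9% to 94.5% and 93.9% to 96.6%). In burrowing replicate 3 and control replicates 1, 2 and 3 it held 56.2%, 54.7%, 53.7% and 56.1%. The 2 kinds of animal were far apart relative to counting error. The allele difference of 1.36 (SE 0.75) in log2 had an edgeR adjusted p of 0.165, and DESeq2 gave 1.39 with an adjusted p of 0.0493. The range of shares over the 6 animals was 41.7 points, which 5.13% of 10838 genes reached.

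The 2 animals differed from the other 4 on the *P. maniculatus* allele. It gave 2.21 and 1.55 CPM in burrowing replicates 1 and 2. In burrowing replicate 3 and control replicates 1, 2 and 3 it gave 20.2, 20.5, 20.6 and 24.2. The *P. polionotus* allele gave 28.9 and 32.3 in the former and 25.9, 24.7, 24.0 and 31.0 in the latter animals, so it overlapped. In the parental table, too, Cx3cr1 varied among *P. maniculatus* and not among *P. polionotus* libraries, but there 3 of 6 libraries were low and 1 of the 3 was from a burrowing animal. The allele by trial term was 2.58 (SE 1.13) in log2 with an edgeR adjusted p of 1, and 0 of the 8 members were called for that term, where 0.226% of all genes were. Left without burrowing replicate 3, the Cx3cr1 term was 3.76 with an adjusted p of 0.0262, since the remaining burrowing animals were the 2 with few *P. maniculatus* counts. The other members' terms lay between -0.35 (Tmem119) and 0.26 (Trem2).

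**Figure D3:**
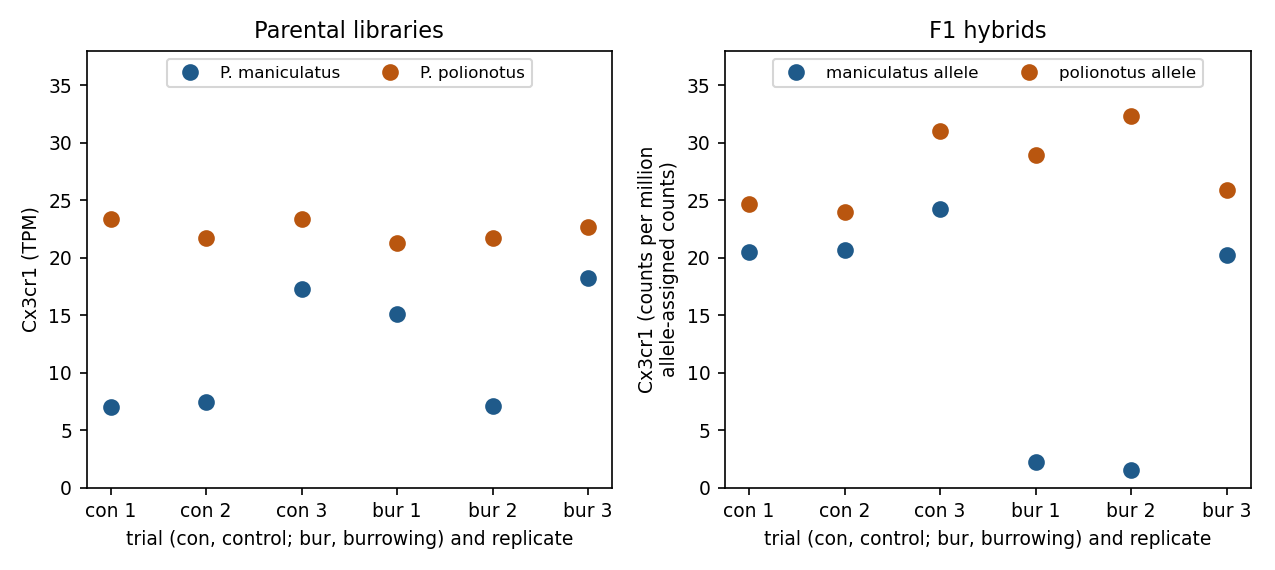
Cx3cr1 in each animal: TPM in the parental libraries (left, by species) and CPM in the F1 hybrids (right, by allele); con is control, bur is burrowing, and the number is the replicate. *P. maniculatus* values split into 7.04 to 7.44 and 15.1 to 18.3 TPM, and the *P. maniculatus* allele was at 2.21 and 1.55 in burrowing replicates 1 and 2 and at 20.2 to 24.2 in the others.

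Since a run of genes can share an uneven allele share, the neighbours of 4 members in RefSeq gene order were read as well; this was chosen after the shares were seen, and order was taken from assembly GCF_049852395.1, which may differ from the build of the files. Around Cx3cr1, 15 neighbours within 15 genes on either side had a mean count of 100 or more. In 0 of them did burrowing replicates 1 and 2 stand above the other 4 animals. In 8 of the 15, among them Myrip, Entpd3, Wdr48 and Csrnp1, replicates 1 and 2 of both trials stood above replicate 3 of both trials. The share of all genes with that split was not counted, and neighbours in a run of genes are not separate observations. Entpd3 shares were 84.7%, 86.6% and 45.9% in burrowing and 82.8%, 85.4% and 46.0% in control replicates. The split seen at Cx3cr1 was thus seen at 0 of these 15 neighbours, and what made it was not tested. In the labels' animal names, replicate 3 of both trials carries the letters F1 and the others a number alone, and no source used here says what this marks.

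For Trem2, Csf1r and C1qb some neighbouring genes had higher shares in the animals with the highest shares of the member. Burrowing replicate 2, the highest for Trem2, stood at 86.9% for Daam2, 77.4% for Mocs1 and 77.6% for Nfya, and was the highest animal in 3 of 5 neighbours. Control replicate 1, the highest for Csf1r, stood at 67.9% for the adjacent Hmgxb3, 74.1% for Arhgef37 and 93.2% for Csnk1a1, and was the highest in 7 of 20 neighbours; burrowing replicate 2, at 52.1% for Csf1r, was the highest in 10 of the 20. Some genes near the C1q genes differed more between animals than they did. Over 16 neighbours of C1qa the median share was 50.4%, 53.1% and 76.6% in burrowing and 49.8%, 78.1% and 76.5% in control replicates. In the animals with the higher medians the lowest neighbour share was 36.0% to 41.0%, so not all neighbours were high there. Wnt4, a neighbour picked after its shares were seen, had 48.9%, 48.4% and 88.4% in burrowing and 48.9%, 88.4% and 89.8% in control replicates. The number of neighbours that split as Wnt4 did was not counted. The 3 animals high for Wnt4 were the 3 with C1qb shares of 70.2% to 71.8%, and in the other 3 Wnt4 was balanced while C1qb stood at 61.9% to 62.7%. C1qa shares in those 2 sets of animals were 66.9% to 70.1% and 63.5% to 68.5%, so they overlapped.

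**Figure D4:**
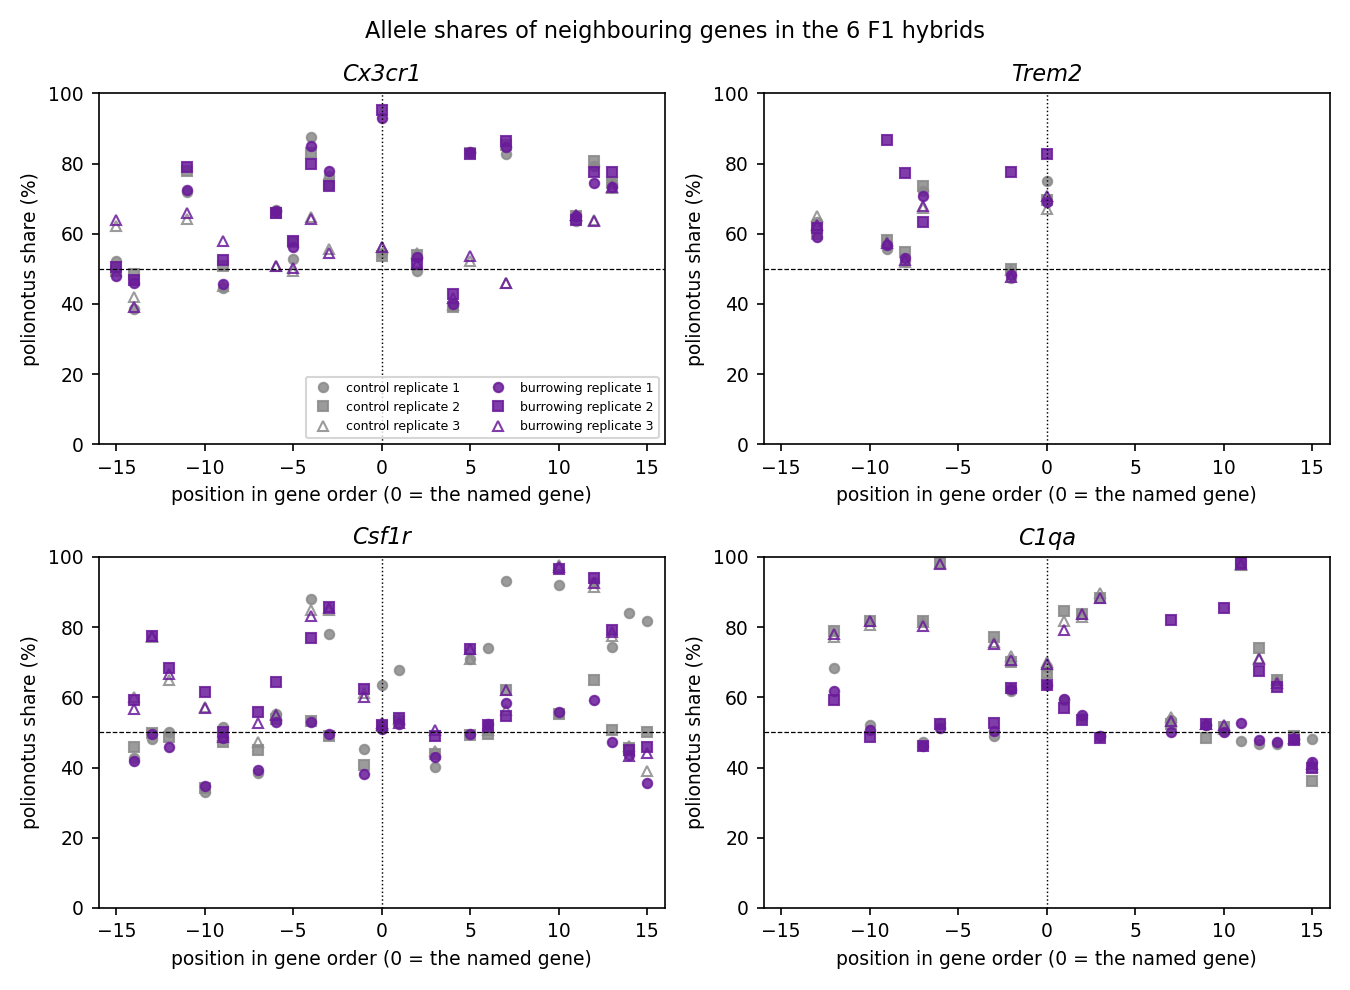
Percent of allele-assigned counts on the *P. polionotus* allele (y axis) for genes whose mean count was 100 or more, by position in RefSeq gene order from Cx3cr1, Trem2, Csf1r or C1qa (x axis, in genes); filled circles and squares are replicates 1 and 2 and open triangles replicate 3, grey for control and purple for burrowing. Burrowing replicates 1 and 2 stand alone at Cx3cr1 itself, whereas replicates 1 and 2 of both trials go together at neighbours such as Entpd3.

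Set side by side, the species and allele differences of the members had 3 patterns. Trem2 was 1.50 higher between species on the log2(TPM + 1) scale and 1.37 higher between alleles in log2 of counts, and C1qa was 0.66 and 1.03 higher. Cx3cr1 was 0.95 and 1.36 higher, with the allele value not called. Tmem119 and P2ry12 differed between species, by 0.78 and -0.56, while their allele differences were 0.03 and -0.05. For P2ry12 this depended on the scaling: with each allele column scaled on its own its allele difference was -0.23 and called (edgeR adjusted p 0.0436). Csf1r and Aif1 were called in neither comparison. The scales differ and the values were not tested against each other.

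**Figure D5:**
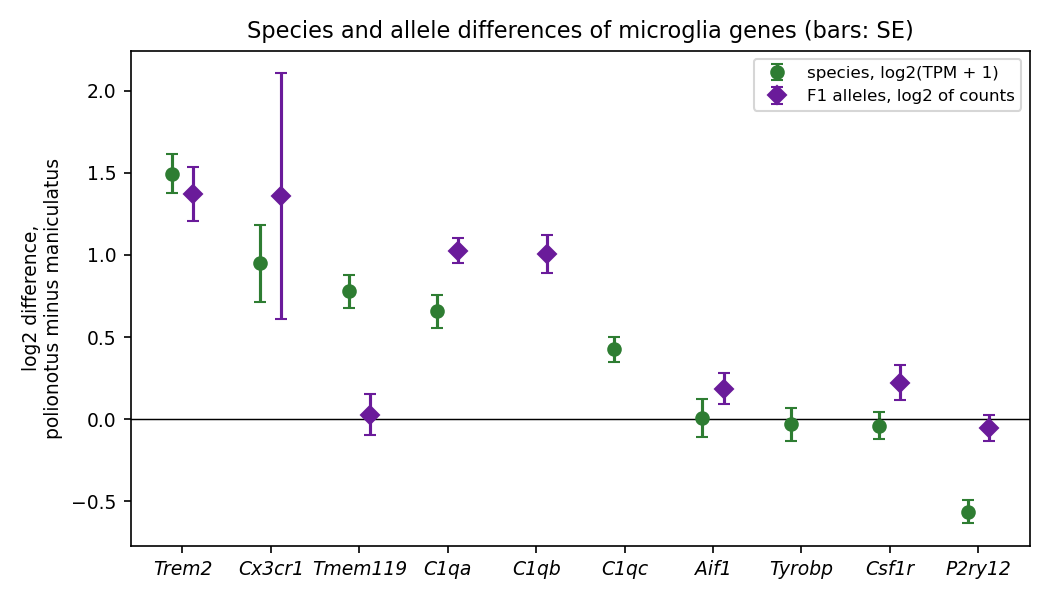
Differences of *P. polionotus* minus *P. maniculatus* for the microglia genes: between species on the log2(TPM + 1) scale (circles) and between alleles of the F1 hybrids in log2 of counts (diamonds), with bars of 1 SE; C1qb has only an allele value and C1qc and Tyrobp only a species value. Trem2 and C1qa lie above 0 on both. With the main scaling, shown here, Tmem119 and P2ry12 lie away from 0 only between species.

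The ligands and partners of the members were tested too. Of 10 such genes, 3 were higher and 2 lower in *P. polionotus* by limma over both trials, and their median was 0.03 on the log2(TPM + 1) scale; these counts are close to the 32.6% and 19.8% of all genes. Il34, a ligand of Csf1r made largely by neurons, was lower (31.2 ± 1.93 against 19.9 ± 1.67 TPM, SD, n = 6, -0.62, limma adjusted p 1.07e-06), and Csf1, the other ligand, had 14.5 ± 2.13 and 15.4 ± 1.73 TPM (0.09, adjusted p 0.493). Cx3cl1, the ligand of Cx3cr1, was higher (0.26, adjusted p 0.00447), as was Adam17, a protease that sheds membrane proteins (0.31, adjusted p 0.000518). Apoe, an apolipoprotein bound by Trem2, was higher (0.98, limma adjusted p 0.000127). Nt5e, an ectoenzyme that makes adenosine from AMP, was lower (-0.22, adjusted p 0.00263). Both Trem2 and Apoe, and both Cx3cr1 and Cx3cl1, were thus higher in *P. polionotus*, whereas Il34 was lower and its receptor Csf1r was not called. Adam10 (-0.03), the growth factor Tgfb1 (-0.04), its partner Nrros (0.15) and the ectoenzyme Entpd1 (-0.03) were not called.

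Between alleles, 2 of the 10 partners were higher and 5 lower on the *P. polionotus* allele, where 34.2% of all genes were higher and 21.5% lower. With each allele column scaled on its own they were 2 and 6, where 2786 of all 11928 genes were higher and 4215 lower. Il34 (-0.45, edgeR adjusted p 0.000114) and Nt5e (-0.64, 0.0118) were lower, Cx3cl1 (1.01, 0.00173) and Adam17 (0.40, 0.00481) higher, each in the direction of its species difference. Apoe went the other way: its *P. polionotus* allele was slightly lower (-0.14, adjusted p 0.00274), with 46.8% to 48.8% of its counts. The Apoe call was lost without the animal as a block. Tgfb1 (-0.52, 0.00444) and Csf1 (-0.29, 0.0123) were lower, Csf1 not without the block. Nrros (1.55, 0.0718), Adam10 (-0.15, 0.219) and Entpd1 (0.05, 0.624) were not called.

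Other genes known from microglia did not follow the members as a group. Of 37 listed, 32 had a row in the TPM table and 27 passed the filter of a mean of 1 TPM. Of these, 4 were higher and 10 lower in *P. polionotus*, with a median of -0.04 on the log2(TPM + 1) scale. Over all genes 32.6% were higher and 19.8% lower. With median scaling the counts were 3 and 12, where 3786 of all 14366 genes were higher and 3897 lower. Adgre1, the F4/80 antigen, fell from 24.8 ± 1.58 TPM in *P. maniculatus* to 9.99 ± 1.74 in *P. polionotus* (SD, n = 6, -1.24, limma adjusted p 6.14e-07). Gpr34, a lysophosphatidylserine receptor, went from 7.55 ± 1.35 to 2.60 ± 0.252 TPM (-1.24, adjusted p 2.14e-06). P2ry13, a relative of P2ry12, was lower as well (-0.73, adjusted p 4.26e-05), as was Arhgdib, a regulator of small GTPases in blood cells (-0.70, adjusted p 1.02e-05). The purinergic receptors P2ry12 and P2ry13 were therefore both lower, and the markers of microglia split in both directions. In the hybrids 6 of 25 had a higher and 4 a lower *P. polionotus* allele by edgeR, where 34.2% and 21.5% of all genes did. The fructose transporter Slc2a5 (2.21, adjusted p 4.44e-05) and Selplg, a selectin ligand (0.43, 0.0014), were higher and Unc93b1, a chaperone of Toll-like receptors (-0.88, 0.000577), lower. The Selplg call was lost without the block.

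Genes of activated microglia were listed apart, with 15 of 25 rows past the filter. 3 were higher and 1 lower in *P. polionotus* by limma, with a median of -0.02, beside 32.6% and 19.8% of all genes. Under both rescalings they were 2 and 2. Calls over all 14366 genes were then 3786 higher and 3897 lower with median scaling, and 3826 and 3857 with quantile normalization. Lpl, the lipoprotein lipase, was higher (0.86, adjusted p 0.000193) and the protease gene Ctsb lower (-0.30, 0.00256). Ctsl (0.15, 0.022) and Lgals3 (0.39, 0.0247) each kept their call in 15 of 20 alternative analyses. Between alleles 6 of 14 were higher and 2 lower, beside 34.2% and 21.5% of all genes. With each allele column scaled on its own they were 3 and 3, beside 2786 higher and 4215 lower of all 11928 genes. In the main test Spp1, osteopontin (1.30, edgeR adjusted p 1.18e-05), and Cd63 (0.48, 0.00115) were among the higher. The lower were Cd9 (-0.56, 0.000487) and B2m, a subunit of MHC class I (-1.30, 0.00473).

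Of the genes that act downstream of or beside Trem2 and Tyrobp, 10 of 18 rows passed the filter. By limma 4 were higher and 0 lower in *P. polionotus*, where 32.6% of all genes were higher and 19.8% lower. Both rescalings gave 4 and 0 as well, beside the rescaled counts over all genes given above. Without the filter on low values 7 of 18 were higher and 1 lower, beside 5466 higher and 3594 lower of 19376 genes. The 4 included Treml1, a platelet receptor of the same family as Trem2 (1.18, limma adjusted p 0.000497), and Clec5a, a receptor that also signals through Tyrobp (0.66, 0.000252). The others were the transcription factor Nfatc1 (0.38, 8.18e-05) and Clu, an apolipoprotein bound by Trem2 (0.26, 0.0039). Nfatc1 and Clec5a were at low levels, 0.803 and 0.657 TPM in *P. maniculatus* against 1.34 and 1.63 TPM in *P. polionotus*. Both thus passed the filter of a mean of 1 TPM only through *P. polionotus*, the species in which they were higher. Between alleles 1 of 12 was higher and 2 lower by edgeR, beside 34.2% and 21.5% of all genes. With each allele column scaled on its own they were 1 and 4, beside 2786 higher and 4215 lower of all 11928 genes. The kinase Syk, which docks on Tyrobp, had a lower *P. polionotus* allele (-0.71, adjusted p 6.92e-05), as did the kinase Ptk2b (-0.29, 0.00171). The adaptor Pik3ap1 was higher (0.71, 0.0197) and kept its call in 8 of 11 alternatives. Nfatc1 (0.80, 0.084) was not called.

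Other complement genes changed in both directions. 27 of 38 rows passed the filter, with 7 higher and 8 lower in *P. polionotus* by limma and a median of -0.01 without the C1q chains themselves, beside 32.6% and 19.8% of all genes. C1s, the protease that C1q carries, was higher (0.89, adjusted p 4.24e-06), and C5, from which a late part of the cascade is made, was lower (-0.46, 5.53e-05). C1ql1, a secreted synaptic protein related to C1q, was higher (0.52, 0.000145). C1qbp, a mitochondrial protein that can bind C1q, was lower (-1.75, 8.29e-09). Between alleles 12 of 24 were higher and 3 lower by edgeR, beside 34.2% and 21.5% of all genes. C1s (1.58, adjusted p 0.00016), C7 (1.77, 4.48e-06) and Masp2 (0.64, 0.000289) were higher and Cd93 (-0.81, 3.93e-05) lower. C1qa, C1qb and C1s thus all had a higher *P. polionotus* allele, and C1qa and C1s were higher between species as well. In the trial comparisons and interactions 1 gene of these 5 lists was called, Adgre1 in its allele by trial term, and it is named here after its values were seen. Its *P. polionotus* allele held 83.2%, 82.1% and 86.4% of 119, 168 and 118 counts in burrowing and 41.3%, 50.9% and 51.5% of 63, 57 and 342 counts in control replicates. The groups did not overlap, and the term was 2.48 (SE 0.24) in log2 with an edgeR adjusted p of 0.0457. The call was lost when any single animal was left out and held in the other 5 of 11 alternatives. The row was matched by gene ID.

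Within groups the members varied together, mostly in *P. maniculatus*. Averaged over the 8 members, the standardized deviation from the group mean was 0.07, -1.09 and 1.01 in burrowing and -0.01, -1.31 and 1.32 in control *P. maniculatus* replicates, and between -0.16 and 0.20 in *P. polionotus*. Control replicate 2 and burrowing replicate 2 of *P. maniculatus* were therefore low, and replicate 3 of both trials high, for several members at once. Over the 12 libraries the residuals of Csf1r and Aif1 had a Pearson r of 0.88, Trem2 and Cx3cr1 0.80, and C1qa and Tmem119 -0.41. These values share 12 libraries and their scaling and are given as a description. Among the 8 non-members whose residuals were most like the mean of the members were Ndufaf5 (r = 0.945), Ralgds (0.939) and Prmt7 (0.927), and 4 of the 8 carried a locus number only, such as LOC102904635 (0.967). Laptm5, a lysosomal protein of blood cells and microglia, ranked 12th of 14358 genes (0.915), and C1qc ranked 77th (0.844). The other microglial genes had a median r of 0.33, with 21 of 27 above 0, and all other genes a median of 0.13. Markers of several other cells had higher medians: the median r was 0.53 for oligodendrocyte (9 of 10 above 0), 0.50 for endothelial and pericyte (9 of 9) and 0.41 for astrocyte markers (8 of 10), so the likeness was not particular to microglial genes.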

How the data were processed

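Members and gene lists were chosen with earlier results of these data known. For the parental animals the authors deposited TPM per gene. For the hybrids the deposited values are whole-number counts per gene and allele. Reads were aligned with STAR 2.4.2a, per the submitters' processing notes. Build, annotation, TPM method and allele assignment: not given in the sources used here. Reads without an allele are not counted. TPM keep no depth. A nameless row (0.789% to 2.48% of a column's sum) was left out. 27 TPM and 19 count rows with names turned into dates were tested unnamed. 23 listed genes, C1qc among them, were matched by RefSeq gene ID.

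TPM were tested with limma 3.58.1 (mean trend) on log2(TPM + 1), over the 14366 genes averaging 1 TPM or more; fold changes on this scale understate those of low genes, and the 12 libraries share 1 estimate of the spread. All 8 members in the TPM table passed the filter. Counts were tested with edgeR's quasi-likelihood F test (version 4.0.16, R 4.3.3) after filterByExpr and TMM. For alleles the animal was a block, both columns took the animal's total as library size, and the minimum was a mean of 20 counts. No filter removed a gene of the count table. SE of edgeR values is the size of the log2 difference over the square root of F; this version never gives a p below its Poisson bound, so p and SE need not match. Tests were two-sided, and p-values were adjusted over all genes (Benjamini-Hochberg, threshold 0.05). Alternatives included DESeq2 1.42.0, other pseudocounts, filters and scalings, and each library left out. The tests were tested on simulated data. Replicates shared at most 0.964% identical values.

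Named were all members, all 10 partners, and from each other microglial or complement list the 4 genes of smallest p in the species and in the allele comparison, apart from results not reported here; neighbours, Laptm5, and a gene's value in the other comparison were chosen after values were seen. Summed levels are given for markers of other cells. Likeness is the Pearson correlation, over 12 libraries and after subtracting group means, with the members' mean standardized residual.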

Additional observations from a re-analysis of the deposited data

Results flagged for a closer look

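In 4 of 34 sets of 6 animals tested, 1 animal lay farther from the rest than Dixon's 95% value allows, which chance does in about 1 set in 20. P2ry12 was 24.2 TPM in *P. polionotus* burrowing replicate 1 and 20.8 to 22.0 TPM in the other 5 *P. polionotus* libraries. Csf1r was 15.7 TPM in *P. polionotus* control replicate 2, a library that also stood apart on the second principal component, and 12.2 to 13.3 TPM in the other 5. The *P. polionotus* share of Aif1 was 60.9% in hybrid control replicate 2, on 64 counts with a 95% Wilson interval of 48.7% to 71.9%, and 50.7% to 54.2% in the other 5. The *P. polionotus* share of Csf1r was 63.6% in hybrid control replicate 1, on 709 counts with an interval of 60.0% to 67.1%, and 50.8% to 52.7% in the other 5.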

How the results depend on the processing

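The counts of genes and of microglia genes called kept within 1.5 times in 291 of 312 alternatives. In trial comparisons the gene counts are near 0: *P. maniculatus* went from 1 to 0 with a pseudocount of 0.1 or with only the groups compared, *P. polionotus* from 0 to 3 and the interaction from 0 to 1 without the filter on low values (also 1 with a pseudocount of 5), and the hybrids from 0 to 2 with DESeq2. Leaving out single libraries gave 1 to 6, 0 to 2 and 0 to 2 genes for *P. maniculatus*, *P. polionotus* and the interaction. The allele by trial count went from 27 to 60 with DESeq2 and to 16 without the animal as a block. With single animals left out it went to between 10 (without control replicate 2) and 73 (without control replicate 3), and microglia genes called there were 0 to 1. The cause was not tested. With unadjusted p under 0.05 the main counts were 291, 446, 415, 90 and 266.

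Of 1372 alternatives for single microglia genes, 1285 kept direction and side of the threshold, 7 lost and 5 gained a call, 75 changed the sign of a value that was not called (size at most 0.153) and 0 reversed. The lost and gained calls concern Cx3cr1, C1qc, Csf1r and P2ry12 and stand in the report. Leaving out the 3 libraries that stood apart was chosen after seeing the data. Replicate numbers were not taken to pair the samples, since in none of the pairs of groups compared were all 3 same-numbered correlations over 0.1. The 2 *P. maniculatus* trials came close, with 0.254, 0.126 and 0.0994 for replicates 1, 2 and 3. The members' mean deviations given above also went by replicate number there. With a replicate block, that trial comparison still called 0 members. Same-numbered deviations correlated between -0.229 and 0.547 over 18 pairs of parental libraries and between -0.584 and 0.186 for the 3 hybrid pairs. Each library was also set against the 3 libraries of each other group, of which 1 carries its number. It correlated best with that 1 in 20 of 36 parental cases (55.6%) and 2 of 6 hybrid cases (33.3%). *P. maniculatus* control and *P. polionotus* burrowing animals, which no comparison sets against each other, had 0.240, 0.178 and 0.547. With the replicate block, the species comparison over both trials called 4815 genes higher and 2949 lower, and the members' counts did not change. Depth limits Trem2 and Aif1 most, with as few as 75 and 58 counts in an animal.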
